A study of Homo sapiens with 20 samples.

Results

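The change in translation efficiency after loss of NAT10 was measured in K562 cells as the change in ribosome footprints relative to the change in RNA of the same gene. All genes listed in both the RNA-seq and the Ribo-seq count tables were taken, which gave 20401 genes of the 60616 in the RNA-seq table, measured in 8 of the 20 samples of the series. K562 is an established leukaemia line with erythroid and megakaryocytic traits. The knockout cells carried a CRISPR-Cas9 deletion of exon 5 of NAT10, and the wild type cells were the parental line, with no other agent named for either genotype. Each genotype had 2 RNA-seq libraries from total RNA and 2 Ribo-seq libraries from ribosome fractions of cycloheximide-treated cells. The remaining samples were immunoprecipitations of acetylated RNA and their controls, of which the wild type peak lists are used once below. The labels do not say whether the knockout cells were 1 clone, or whether replicates were separate cultures, so each p-value rests on how far these libraries spread, and that spread may be technical.

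Translation efficiency is the number of ribosomes on a gene's mRNA per copy of that mRNA, and it is read from sequencing as footprints over RNA. NAT10 is the nucleolar acetyltransferase that makes N4-acetylcytidine (ac4C) in 18S ribosomal RNA and, with the adaptor THUMPD1, in serine and leucine tRNAs, and ac4C in mRNA has been linked to translation. mRNAs of ribosomal proteins and of several translation factors start with a pyrimidine tract, the TOP element, through which mTORC1 and LARP1 set their translation together. mRNAs of secreted, membrane and lysosomal proteins are translated at the endoplasmic reticulum (ER).

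Total counts were 10388717 to 18778485 in RNA-seq and 621287 to 1220308 in Ribo-seq libraries. The 2 knockout RNA-seq libraries agreed within sampling noise (chi-square per degree of freedom of 1 over the genes in both tables, p = 0.417), whereas the other pairs gave 2.38 to 3.73. They were therefore summed and counted as 1 sample, so the comparison set 1 knockout RNA sample and 2 knockout footprint libraries against 2 wild type libraries of each kind. All 16 of the 16 erythroid and BCR-ABL markers of K562 had at least 10 RNA counts in every library, and 14 of them had this in footprints. Levels below are CPM, counts scaled to a total of 1000000 per library over the genes in both tables, and they compare libraries and not genes of different length. Of 19 granulocyte and monocyte markers, 10 had at least 10 RNA counts in every library, and the whole list summed to 154 to 160 CPM in knockout and 294 to 301 CPM in wild type RNA. Of 18 megakaryocyte and platelet markers, 6 did, and the whole list summed to 76.8 to 78.8 CPM in knockout and 142 to 145 CPM in wild type RNA. Of 15 lymphocyte markers, 4 did, and the whole list summed to 45.3 to 49.7 CPM in knockout and 60.7 to 61.8 CPM in wild type RNA. Among these markers S100A8, S100A9, GP9, PF4, PPBP, SELP and MS4A1 had no count in any library. Others were present, such as CD33 with 438 to 649 and ITGA2B with 160 to 296 RNA counts per library. The part of these markers in the results was not tested. Of the genes in both tables, 10299 passed the filter on low counts and were tested. Among those, 7298 had at least 10 counts in each of the 8 libraries, and 53 had no footprint in any.

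RNA and footprints of many genes differed between the genotypes, with the same direction wherever both were called, and few changes in efficiency were resolved. In a single edgeR quasi-likelihood model of both assays, 1572 genes (15.3%) changed in RNA at an adjusted p under 0.05, of which 718 (6.97%) rose and 854 (8.29%) fell in knockout. The number of RNA calls was 156 without wild type RNA-seq replicate 1 and 192 without replicate 2. The share of rises among the RNA calls was 45.7%, and it was 31.7% with each assay scaled on its own, 25.7% with the replicate block, 53.1% without a filter on low counts and 56.8% with limma voom. Footprints changed for 881 genes (8.55%), of which 282 (2.74%) rose and 599 (5.82%) fell. RNA and footprints both rose for 133 genes, which is 18.5% of the RNA rises and 47.2% of the footprint rises. Both fell for 349 genes, 40.9% of the RNA falls and 58.3% of the footprint falls. No gene had calls in opposite directions. These data come from bulk samples, in which fewer cells of a type and less RNA per cell cannot be told apart.

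The change in efficiency is the interaction of assay and genotype in this model. The edgeR quasi-likelihood test called 1 of the 10299 genes (0.00971%), a fall. At an unadjusted p under 0.05 there were 1037 genes (10.1%), 390 higher (3.79%) and 647 lower (6.28%). DESeq2 called 24 genes (10 higher and 14 lower) and limma voom 5 (3 and 2). DESeq2 gave no adjusted p for the gene that edgeR called, TEDC2 (unadjusted p = 3.93e-08 in DESeq2). A gene without a DESeq2 call may therefore have had no adjusted p. The median efficiency change over all genes was -0.06 on the log2 scale, with quartiles of -0.29 and 0.22. The scaling of libraries assumes that most genes keep their level and sets this median near 0. A change in translation shared by all genes can therefore not be seen, and list medians are relative to the median of all genes. As a further description, the ratio of each Ribo-seq to each RNA-seq library was taken, which gives 4 ratios per genotype that share libraries. The 2 knockout RNA-seq libraries differed by sampling noise only, so the spread of the knockout ratios may be understated. All 4 knockout ratios lay above the wild type ones for 1325 genes (12.9%) and below them for 2126 genes (20.6%). With 2 libraries against 2, an exact permutation test of a single gene cannot give a two-sided p below 0.333.

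**Figure D1:**
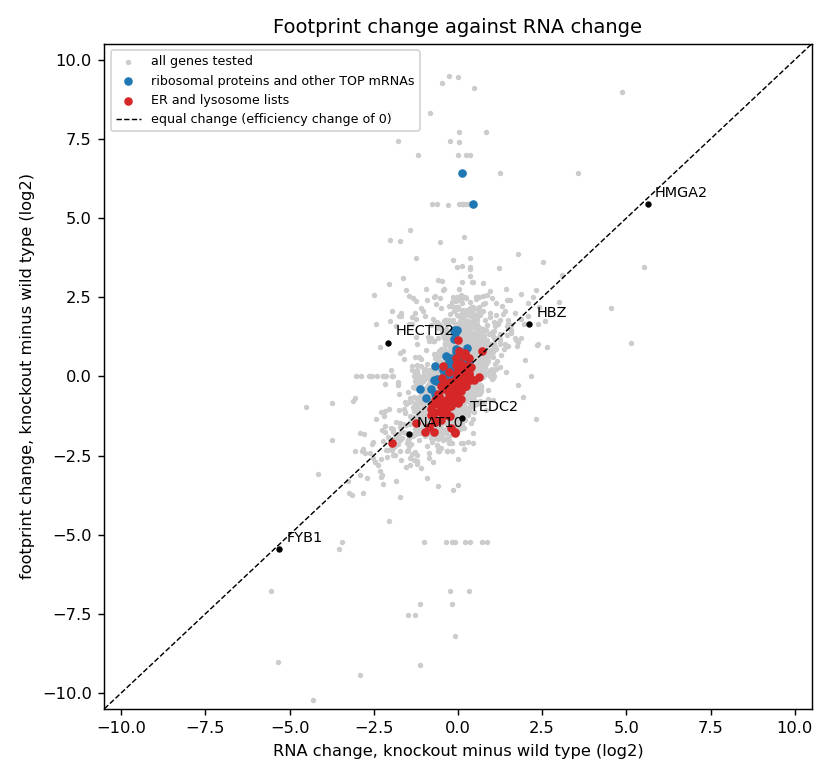
Footprint change (y axis) against RNA change (x axis) for the 10299 genes tested, both as log2 of knockout over wild type from the joint model. Grey points are all genes, blue points ribosomal protein and other TOP genes, red points the ER and lysosome lists, and black points named genes. Points on the dashed line have an efficiency change of 0. HMGA2 and FYB1 lie near the line at its ends, TEDC2 and most red points lie below it, and most blue points lie above it.

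The 1 gene that passed the test was TEDC2 (ENSG00000162062), a subunit of the tubulin delta and epsilon complex that stabilises centriole microtubules. Its RNA was 43.8 and 46.1 CPM in knockout against 43.7 and 40.5 CPM in wild type. Its footprints were 57.9 and 53.1 CPM in knockout against 134 and 138 CPM in wild type. The RNA levels were thus alike, while both knockout Ribo-seq libraries lay well below both wild type ones, with no overlap. Its log2 efficiency change was -1.45 (SE 0.19), with an edgeR adjusted p of 0.0335, made up of a footprint change of -1.31 and an RNA change of 0.13. The efficiency change stayed between -1.55 and -1.28 over the 17 alternative fits. The call was lost in 9 of them, with edgeR adjusted p values up to 0.45 when wild type RNA-seq replicate 2 was left out, and DESeq2 gave no adjusted p. Its partner TEDC1 had footprints of 37.5 and 33.8 CPM in knockout against 34.4 and 26.3 CPM in wild type, with an efficiency change of -0.13 (SE 0.31). RefSeq lists an antisense gene, TEDC2-AS1, and a miRNA gene, MIR6768, that overlap TEDC2, and the sources used here give no strand setting for the counting.

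NAT10 itself (ENSG00000135372.9) fell mostly in RNA. Its RNA was 56.5 and 55.7 CPM in knockout against 151 and 162 CPM in wild type. Its footprints were 55.4 and 48.3 CPM in knockout against 176 and 188 CPM in wild type. Knockout libraries were lower in both assays without overlap. RNA changed by -1.45 and footprints by -1.82 (edgeR adjusted p = 3.87e-06 and 4.63e-05), and the efficiency change was -0.38 (SE 0.21, edgeR adjusted p = 0.576), or -0.18 without knockout Ribo-seq replicate 2. Reads from every exon of NAT10 enter these counts, so they do not measure the deletion itself. THUMPD1, the tRNA adaptor of NAT10, had an efficiency change of 0.02 (SE 0.22), and the list of 11 tested tRNA handling genes that includes it had a median of -0.16. Beside the serine and leucine tRNA synthetases, this list holds selenocysteine factors, such as SEPSECS and EEFSEC, and the general tRNA enzymes TRMT1 and ELAC2. Its median is therefore not specific to serine and leucine tRNAs. None of the 11 was called by edgeR, DESeq2 or limma voom, though DESeq2 may have given some of them no adjusted p. At an unadjusted p under 0.05 in edgeR, 1 was lower, beside 6.28% of all genes.

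mRNAs of ribosomal proteins had more footprints per RNA in knockout, with a positive median change in footprints and a negative one in RNA. Of the 79 ribosomal protein genes, all of which were tested, 69 had a positive efficiency change and 10 a negative one, beside 44.1% positive over all genes. Their median was 0.35, beside -0.06 for all genes. None passed the edgeR test, with 17 higher and 0 lower at an unadjusted p under 0.05, beside 3.79% and 6.28% of all genes. Other fits did call members, each of them higher: 5 with DESeq2 (RPL3, RPS6, RPS19, RPS23 and RPL35A), 3 with limma voom and also 3 with the knockout RNA-seq libraries kept apart (RPL3, RPS19 and RPS23), and 4 with the replicate block (those and RPS6). Non-overlapping ratios that were higher in knockout were seen for 35.4% of them, beside 12.9% of all genes, and lower ones for 1.27%, beside 20.6%. In the small subunit list (32 genes) the median change was 0.29 in footprints and -0.13 in RNA. In the large subunit list (47 genes) it was 0.20 in footprints and -0.16 in RNA. Among the 79, footprints rose for 8 and fell for 3, beside 2.74% and 5.82% of all genes. RNA rose for 1, beside 6.97%, and fell for 6, a share near the 8.29% of all genes.

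Start sequences show the pyrimidine run that is typical of these mRNAs. They run from 5 bases before to 25 bases after the annotated start, and come from RefSeq on GRCh38.p14, 5′ to 3′ on the transcribed strand. Capitals mark a run of C followed by at least 5 bases that are each C or T, with its first base within 5 bases of the start, searched on the transcribed strand only. The genes were chosen after their values were seen, the first 6 as ribosomal protein and TOP genes with the run, RPL3 as one without it, PDIA6 and ATP6AP1 as ER and lysosome genes, and TEDC2 as the called gene.
RPS19, chr19:41860250-41860279, plus strand: tcgttCCCTTTCCCCTggctggcagcgcgg
RPS23, chr5:82278330-82278359, minus strand: CTTCTCTCTTTCgctcaggcccgtggcgcc
RPS6, chr9:19380212-19380241, minus strand: tggCCCTCTTTTCCgtggcgcctcggaggc
RPL35A, chr3:197950185-197950214, plus strand: tcgtCCTTCTCTTaccgccatcttggctcc
NAP1L1, chr12:76084661-76084690, minus strand: tgggtCTTTTTTagcgccatctgctcgcgg
EEF1A1, chr6:73521008-73521037, minus strand: acgttCTTTTTCgcaacgggtttgccgcca
RPL3, chr22:39319599-39319628, minus strand: ccggcctctaccggcgggatttgatggcgt
PDIA6, chr2:10832461-10832490, minus strand: tactcaaccgagggtgcccgctgcaaggtt
ATP6AP1, chrX:154428672-154428701, plus strand: gaggcagtggaggctgaggctatgatggcg
TEDC2, chr16:2460104-2460133, plus strand: tcttcagaggcggcaaattgcaaggagacg

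The run was found in 11% of all RefSeq start regions, in 11.9% of the 8493 tested genes that had one, and in 74.6% of the 63 ribosomal protein genes that had one. A match describes these letters and is not a mapped start. Ribosomal protein genes with the run (47) had a median efficiency change of 0.38, and those without it (16) had 0.24. Outside the ribosomal protein and other TOP lists, the 951 genes with the run had a median of 0.01 and the 7465 genes without it -0.07. Other genes that carry the same letters thus lay close to the value of all genes.

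RPS19, a small subunit protein that is mutated in Diamond-Blackfan anaemia, showed the pattern through its footprints. Its RNA was 1543 and 1513 CPM in knockout against 1578 and 1562 CPM in wild type. Its footprints were 3180 and 3319 CPM in knockout against 2105 and 1850 CPM in wild type. RNA was nearly level and footprints were higher in both knockout libraries. Footprints rose by 0.67 on the log2 scale (edgeR adjusted p = 0.000855), and the efficiency change was 0.68 (SE 0.15, unadjusted p = 0.000505 in edgeR, adjusted p = 0.285).

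RPS6, the small subunit protein phosphorylated downstream of mTORC1, showed it through RNA. Its RNA was 561 and 551 CPM in knockout against 1204 and 1272 CPM in wild type. Its footprints were 606 and 634 CPM in knockout against 871 and 721 CPM in wild type. RNA fell by 1.12 (edgeR adjusted p = 0.000123), with a footprint change of -0.41 and an efficiency change of 0.72 (SE 0.18). RPL3, a large subunit protein at the peptidyl transferase centre, combined both. Its RNA was 1132 and 1127 CPM in knockout against 1762 and 1977 CPM in wild type. Its footprints were 910 and 1083 CPM in knockout against 792 and 735 CPM in wild type. RNA changed by -0.69 (edgeR adjusted p = 0.00431), while the footprint change of 0.33 did not pass the test (edgeR adjusted p = 0.0988). Knockout libraries were thus lower in RNA and higher in footprints, and the efficiency change of 1.03 (SE 0.18, edgeR adjusted p = 0.285) passed in 7 of the 17 alternative fits, as many as for TEDC2. It had the lowest p of all positive changes that met the rule for named genes.

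RPS23, a protein of the decoding centre, had an efficiency change of 0.81 (SE 0.19), and RPL35A, a large subunit protein, 0.67 (SE 0.18). In both, footprints rose (edgeR adjusted p = 0.0104 and 0.00897) and RNA did not pass the test. RPL41, the shortest ribosomal protein, had footprints of 51.1 and 24.1 CPM in knockout against 13.9 and 15.4 CPM in wild type, a rise of 1.46 (edgeR adjusted p = 0.0189), with RNA of 126 to 134 CPM in all 4 libraries. At the other end, RPLP2, a protein of the ribosomal stalk, had -0.26 (SE 0.15). Its footprints fell by 0.84 (edgeR adjusted p = 0.000193) and its RNA by 0.58 (edgeR adjusted p = 0.00427), so the 2 measures moved together. RPS10 and RPS26 had 0 footprints in both wild type libraries and are not read as changes. Leaving such genes out moved the small subunit median from 0.40 to 0.37 and left the large subunit median at 0.34. Many ribosomal protein genes have near-identical processed copies, among which the authors' counting could split reads, so values of single members are uncertain.

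The other TOP mRNAs, which encode elongation and initiation factors and binding proteins, had a median efficiency change of 0.51 over 21 tested genes. Of these, 20 were positive, beside 44.1% of all genes. Their median change was 0.03 in footprints and -0.28 in RNA. Ratios did not overlap and were higher in knockout for 13 of the 21 (61.9%), beside 12.9% of all genes. None was called by edgeR or limma voom, and DESeq2 called NAP1L1 and PABPC1, both higher. At an unadjusted p under 0.05 in edgeR, 10 were higher and 0 lower, beside 3.79% and 6.28% of all genes. EEF2, the elongation factor that moves the ribosome along, had RNA of 5608 and 5631 CPM in knockout against 8997 and 8594 CPM in wild type. Its footprints were 3656 and 4475 CPM in knockout against 4069 and 4308 CPM in wild type, which overlap. RNA fell by 0.61 (edgeR adjusted p = 0.00346), and the efficiency change was 0.53 (SE 0.15). PABPC1, the poly(A) binding protein, had 0.55 (SE 0.17), and NAP1L1, a histone chaperone, 0.84 (SE 0.21). NPM1, a nucleolar chaperone of ribosome assembly, had 0.04 (SE 0.38). EEF1A1 had only 25.8 to 112 CPM of footprints for 3720 to 5861 CPM of RNA, and it has many near-identical processed copies. The 37 initiation and release factors outside the TOP list had a median of 0.02 and the 23 cytosolic tRNA synthetases and cofactors -0.04, beside -0.06 for all genes.

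**Figure D2:**
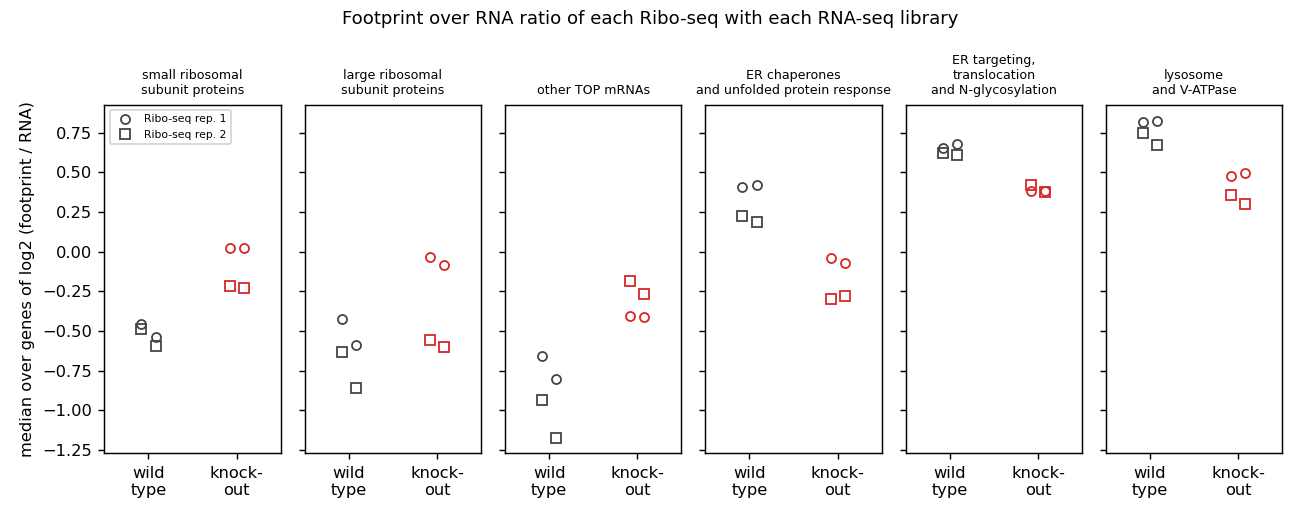
Median over the genes of each list of the log2 footprint over RNA ratio (y axis), for each pairing of a Ribo-seq with an RNA-seq library of wild type (grey) and knockout (red). Circles are Ribo-seq replicate 1 and squares replicate 2, with the 2 RNA-seq libraries side by side. The 4 pairings share libraries. Knockout lies above wild type for small ribosomal subunit proteins (-0.23 to 0.02 against -0.59 to -0.46) and other TOP mRNAs, below it for the ER and lysosome lists, and overlaps it for large subunit proteins (-0.60 to -0.04 against -0.86 to -0.43).

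The library ratios behind these medians show how far single libraries carried them. Over small subunit proteins, the median log2 ratio was -0.23 to 0.02 in knockout and -0.59 to -0.46 in wild type, with no overlap. Over large subunit proteins it was -0.60 to -0.04 in knockout and -0.86 to -0.43 in wild type, which overlap. The overlap came from knockout Ribo-seq replicate 2, the shallowest library, at -0.60 and -0.55, while replicate 1 gave -0.09 and -0.04. Without knockout Ribo-seq replicate 1 the medians were 0.16, 0.08 and 0.34 for small subunit, large subunit and other TOP genes. Without wild type Ribo-seq replicate 1 they were 0.69, 0.64 and 0.81. The median of all genes was -0.10 and 0.10 in the same fits. The large subunit median was 0.57 without knockout Ribo-seq replicate 2 and 0.22 without wild type RNA-seq replicate 2, where all genes had 0.06 and -0.06.

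mRNAs of ER chaperones, of the ER entry and glycosylation machinery and of lysosomal proteins went the other way: their footprints were lower by more than their RNA. Over all genes, 5753 of 10299 had a negative efficiency change. Of 44 tested genes for ER chaperones and the unfolded protein response, 36 had a negative efficiency change, with a median of -0.38. Of 56 for ER targeting, translocation and N-glycosylation, 42 were negative, with a median of -0.25. Of 41 for the lysosome and its proton pump, the V-ATPase, 37 were negative, with a median of -0.43. No member passed the edgeR efficiency test. At an unadjusted p under 0.05, 14, 15 and 16 were lower and 1, 1 and 0 higher, beside 6.28% and 3.79% of all genes. DESeq2 called CALR, P4HB and PSAP as lower, the fit without a filter CALR, PDIA6, PSAP and ATP6AP1, and limma voom none. Ratios did not overlap and were lower in knockout for 54.5%, 50% and 51.2% of these lists, beside 20.6% of all genes. This was not particular to them. The share was 50% for glycolysis and hypoxia genes, 46.5% for replication-dependent histones and 40.7% for cholesterol synthesis. Higher ratios made up 3.12%, 4.65% and 0% there, and the efficiency medians were -0.21, -0.20 and -0.23. The median library ratios did not overlap in any of the 3 lists. They were -0.30 to -0.04 in knockout against 0.19 to 0.42 in wild type for ER chaperones, 0.38 to 0.42 against 0.61 to 0.68 for ER targeting, and 0.30 to 0.50 against 0.67 to 0.83 for the lysosome.

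Footprints fell for 16 ER chaperone, 15 ER targeting and 22 lysosomal genes and rose for none of them, beside 5.82% of all genes that fell. RNA fell for 11, 9 and 13 of the same lists, beside 8.29% of all genes, and rose for 0, 2 and 1. The median footprint changes were -0.72, -0.28 and -0.79 in the order of the lists, and the median RNA changes -0.20, -0.03 and -0.29. Lower RNA thus accompanied lower footprints in the ER chaperone and lysosome lists but was smaller in size. In the ER targeting list the median RNA change was near 0. Without knockout Ribo-seq replicate 2 the efficiency medians were -0.25, -0.07 and -0.23, and without knockout Ribo-seq replicate 1 they were -0.55, -0.41 and -0.59. The median of all genes was 0.06 and -0.10 in the same fits. Without wild type Ribo-seq replicate 1 the ER targeting and lysosome medians were -0.08 and -0.24, and without replicate 2 the ER chaperone median was -0.22. All genes had 0.10 and 0.05 there.

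CALR, the calcium-binding lectin chaperone calreticulin, is an example from the ER lumen. Its RNA was 157 and 162 CPM in knockout against 215 and 201 CPM in wild type. Its footprints were 251 and 203 CPM in knockout against 457 and 489 CPM in wild type. Knockout was lower in both assays, by a larger factor in footprints. Footprints fell by 1.08 (edgeR adjusted p = 0.0003), with an RNA change of -0.35 and an efficiency change of -0.73 (SE 0.19). PDIA6, a protein disulfide isomerase, had footprints of 117 and 134 CPM in knockout against 305 and 255 CPM in wild type and an efficiency change of -0.79 (SE 0.19). Another isomerase, P4HB, had -0.57 (SE 0.17). HSPA5, the main Hsp70 chaperone of the ER, had -0.52 (SE 0.19), with footprints of 124 and 96.6 CPM in knockout against 201 and 202 CPM in wild type. The list also held positive members, such as DNAJC10, a disulfide reductase of ER-associated degradation, at 1.16 and ERO1A, which reoxidises the isomerases, at 0.42.

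At the ER membrane, SRPRB, the beta subunit of the signal recognition particle receptor, had level RNA, at 35.7 and 36.9 CPM in knockout against 38.3 and 35.8 CPM in wild type. Its footprints were 58.8 and 48.3 CPM in knockout against 89.3 and 101 CPM in wild type, with no overlap. Footprints fell by 0.83 (edgeR adjusted p = 0.0119), with an RNA change of 0.00 and an efficiency change of -0.83 (SE 0.21). LMAN2, a cargo lectin, had -0.67 (SE 0.18), and RPN1, a subunit of the oligosaccharyltransferase, -0.61 (SE 0.18). SEC61A1, the pore of the translocon, had -0.40 (SE 0.21). SEC11A, the catalytic subunit of signal peptidase, stood apart in this list. Its footprints were 141 and 159 CPM in knockout against 118 and 111 CPM in wild type, its RNA fell by 0.44 (edgeR adjusted p = 0.0216), and its efficiency change was 0.77 (SE 0.19).

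Among lysosomal genes, PSAP, the precursor of the saposins that help degrade sphingolipids, had the most footprints of the members named here. Its RNA was 157 and 155 CPM in knockout against 295 and 284 CPM in wild type. Its footprints were 226 and 185 CPM in knockout against 583 and 636 CPM in wild type. Knockout was lower in both assays without overlap. Footprints fell by 1.59 and RNA by 0.86 (edgeR adjusted p = 2.34e-05 and 0.000898), and the efficiency change was -0.73 (SE 0.19). ATP6AP1 and ATP6AP2, accessory subunits of the V-ATPase, had -1.05 (SE 0.24) and -0.87 (SE 0.26). The membrane glycoprotein LAMP1 had -0.40 (SE 0.25). The cytosolic V-ATPase subunits ATP6V1A and ATP6V1C1 had -0.01 and 0.47, the latter the highest value of the list.

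Mitochondrially encoded mRNAs, which mitochondrial ribosomes translate, had positive efficiency changes in all 9 tested genes, beside 44.1% of all genes, with a median of 0.75. None was called by edgeR, DESeq2 or limma voom, though DESeq2 may have given some of them no adjusted p. At an unadjusted p under 0.05 in edgeR, 4 were higher, beside 3.79% of all genes. MT-ND4, a complex I subunit, had RNA of 47.8 and 46.2 CPM in knockout against 60.9 and 50.5 CPM in wild type. Its footprints were 98.0 and 70.8 CPM in knockout against 59.0 and 59.3 CPM in wild type, higher in both knockout libraries. Its efficiency change was 0.73 (SE 0.24), or 0.40 without knockout Ribo-seq replicate 1. Few of the counted reads fell in these genes, at most 0.0282% of RNA counts and 0.0396% of footprint counts in any library. Whether this low share reflects expression or the processing of reads was not tested. Some members rest on few footprints, such as 6 for MT-CO3 in wild type replicate 1 and 4 for MT-ND5 in knockout replicate 2. The list median was 0.49 without wild type RNA-seq replicate 1 and 1.20 without knockout Ribo-seq replicate 1. The nuclear-encoded respiratory chain (74 genes) and the mitochondrial ribosomal proteins (78 genes) had medians of -0.14 and -0.17.

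Globin genes rose in RNA, with footprints alongside. Of the 8 globin genes tested, RNA rose for 7 and footprints for 5, beside 6.97% and 2.74% of all genes. The efficiency median was -0.07, with 4 values on each side of 0, and 0.10 without HBA2, which had no footprint. HBZ, the embryonic alpha-type globin, had RNA of 274 and 276 CPM in knockout against 63.0 and 66.7 CPM in wild type. Its footprints were 746 and 599 CPM in knockout against 211 and 205 CPM in wild type. RNA rose by 2.12 and footprints by 1.66 (edgeR adjusted p = 4.4e-07 and 2.34e-05), and the efficiency change was -0.46 (SE 0.19), or -0.20 without knockout Ribo-seq replicate 2. HBG1, a fetal beta-type globin, rose by 1.23 in RNA and 1.33 in footprints (edgeR adjusted p = 5.4e-06 and 0.0004), with an efficiency change of 0.10 (SE 0.20). HBA1 and HBA2 are near-identical copies, as are HBG1 and HBG2, and HBA2 had no footprint in any library, so their values are uncertain.

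HMGA2, an architectural chromatin protein of fetal cells, had RNA of 59.3 and 58.7 CPM in knockout against 1.26 and 1.15 CPM in wild type. Its footprints were 23.0 and 19.3 CPM in knockout against 0 and 1.10 CPM in wild type, so both assays separated the genotypes. The wild type footprints were too few to place its efficiency change, which was fitted at -0.19 (SE 1.58). IGF1, a growth factor that supports erythroid cells, rose in both assays, with a negative efficiency change that did not pass the test. Its RNA was 178 and 181 CPM in knockout against at most 35.3 CPM in both wild type libraries. Its footprints were 59.6 and 49.9 CPM in knockout against 16.4 and 18.7 CPM in wild type. RNA rose by 2.38 and footprints by 1.65 (edgeR adjusted p = 7.57e-09 and 0.00113). The efficiency change was -0.74 (SE 0.29, edgeR adjusted p = 0.461), and 0 of 17 alternative fits called it. HMGA2 and IGF1 were chosen after their values were seen. The 24 tested erythroid regulators had an efficiency median of -0.10. None was called by edgeR, DESeq2 or limma voom, though DESeq2 may have given some of them no adjusted p. At an unadjusted p under 0.05 in edgeR, 1 was higher and 1 lower, beside 3.79% and 6.28% of all genes. GATA1, the master erythroid factor, had -0.13 (SE 0.17), KLF1, a globin activator, -0.37 (SE 0.19), and LMO2, a bridging factor of the GATA1 complex, 0.77 (SE 0.27). The 33 tested genes of heme synthesis and iron handling had a median of -0.19.

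Among the other genes named for the lowest p of their direction, those with more footprints per RNA in knockout did not pass the test (edgeR adjusted p of 0.285 to 0.373). PHKG2, HECTD2, SMG1 and KTN1 passed with the replicate block and without a filter on low counts, among other fits. AKAP9 and PHF14 passed only without a filter. None of these was called by limma voom or by DESeq2, which may have given them no adjusted p. PHKG2, the catalytic subunit of liver phosphorylase kinase, had RNA of 22.1 and 21.3 CPM in knockout against 20.0 and 24.1 CPM in wild type. Its footprints were 78.4 and 153 CPM in knockout against 23.8 and 23.0 CPM in wild type, so both knockout libraries were high but unequal. Footprints rose by 2.16 (edgeR adjusted p = 0.00119), and the efficiency change was 2.15 (SE 0.39). RefSeq lists CFAP119 as a gene that overlaps PHKG2. HECTD2, a ubiquitin ligase, had RNA of 77.7 and 75.6 CPM in knockout against 409 and 255 CPM in wild type, a change of -2.08 (edgeR adjusted p = 8.36e-05). Its footprints were 31.5 and 40.2 CPM in knockout against 7.38 and 27.4 CPM in wild type, where replicate 1 had 9 counts. The footprint change of 1.07 did not pass the test (edgeR adjusted p = 0.265). The efficiency change of HECTD2 was 3.15 (SE 0.61), and it has an overlapping antisense gene, HECTD2-AS1. SMG1, the kinase that triggers nonsense-mediated decay, had footprints of 98.8 and 117 CPM in knockout against 45.9 and 43.9 CPM in wild type and a change of 0.98 (SE 0.22). AKAP9, a scaffold of the centrosome and Golgi, had 1.16 (SE 0.25), PHF14, a chromatin reader, 0.98 (SE 0.21), and KTN1, a kinesin anchor of the ER membrane, 1.48 (SE 0.34).

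The negative changes included secreted and membrane proteins. NDUFV3, a complex I subunit, was one whose RNA was level, at 111 and 116 CPM in knockout against 114 and 120 CPM in wild type. Its footprints were 249 and 272 CPM in knockout against 481 and 456 CPM in wild type, and its efficiency change was -0.89 (SE 0.17, edgeR adjusted p = 0.285). It passed in 5 of the 17 alternative fits, DESeq2 and limma voom among them. GDF15, a secreted stress cytokine, had RNA of 273 and 259 CPM in knockout against 238 and 207 CPM in wild type, while its footprints were 354 and 311 CPM against 463 and 484 CPM. The 2 assays thus pointed in opposite directions, with an efficiency change of -0.84 (SE 0.18). ECM1, a secreted matrix glycoprotein, had -1.57 (SE 0.31), SERPINF1, a secreted serpin, -1.14 (SE 0.24), and DLK1, a membrane ligand of the NOTCH family, -0.77 (SE 0.17). CD151, a tetraspanin, had -1.17 (SE 0.26), MBOAT7, a membrane-bound lipid acyltransferase, -1.09 (SE 0.23), and GALNT2, a Golgi enzyme of O-glycosylation, -0.89 (SE 0.20). GGH, a lysosomal folate hydrolase, had -1.36 (SE 0.30), NME4, a mitochondrial nucleotide kinase, -0.84 (SE 0.18), and PPCS, an enzyme of coenzyme A synthesis, -1.07 (SE 0.24). MBOAT7 and PPCS overlap other genes in RefSeq, TSEN34 and CCDC30.

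**Figure D3:**
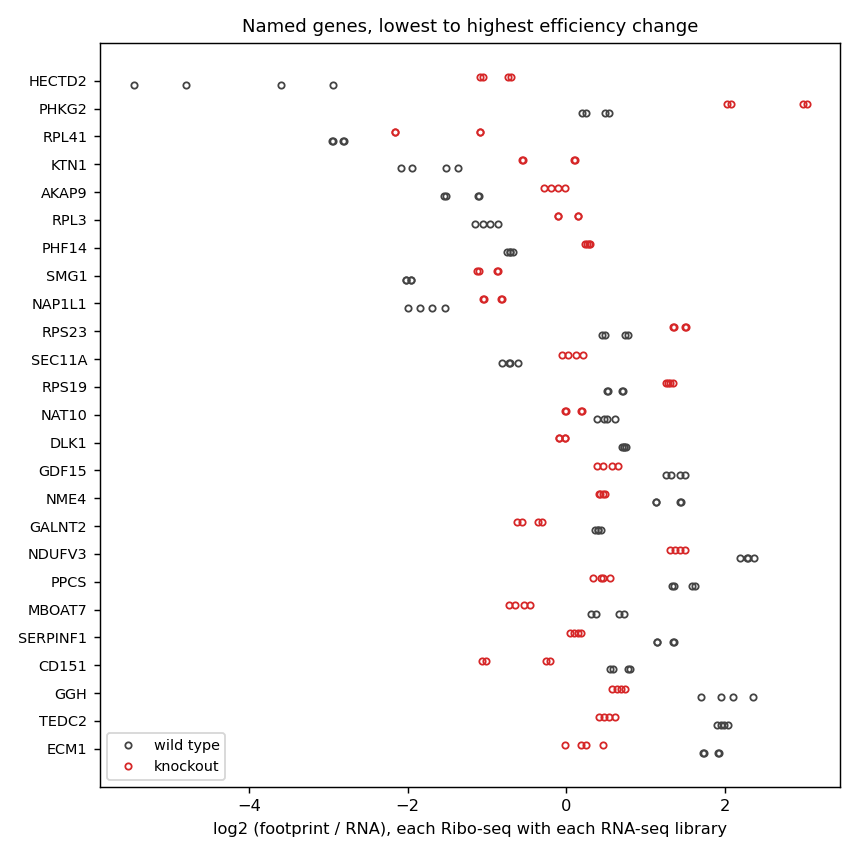
Log2 footprint over RNA ratio (x axis) of NAT10, the 12 genes named as rises and the 12 named as falls (y axis), ordered by efficiency change. Each gene has 4 points per genotype, one for each pairing of a Ribo-seq with an RNA-seq library, and the pairings share libraries. The rule required that the genotypes not overlap, and HECTD2, whose wild type points run from -5.45 to -2.93, has the widest spread.

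Of the 37 lists with at least 5 tested genes, 4 had an efficiency median of 0.3 or more. They were the 2 ribosomal protein lists, other TOP mRNAs and mitochondrially encoded genes, the last with few counted reads. Another 4 had -0.3 or less: ER chaperones, the lysosome, and the megakaryocyte and granulocyte lists, of which only 6 and 9 genes were tested. For these last lists RNA fell for 4 of 6 and 6 of 9 genes, beside 8.29% of all genes, and the efficiency medians were -0.49 and -0.50. The remaining 29 lists had medians from -0.25 to 0.11. Among them were genes with upstream open reading frames and of the amino acid response (-0.08), small subunit processome factors, with which NAT10 works in the nucleolus (-0.03), 60S assembly factors (-0.07), the proteasome (-0.13) and mitosis (0.03). ATF4, whose translation rises in the integrated stress response, had 0.24 (SE 0.27), with RNA of 545 to 604 CPM in all libraries. The amino acid carriers SLC7A1, SLC1A5 and SLC7A5 of the same list had -0.82 (SE 0.24), -0.63 (SE 0.16) and -0.52 (SE 0.18).

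**Figure D4:**
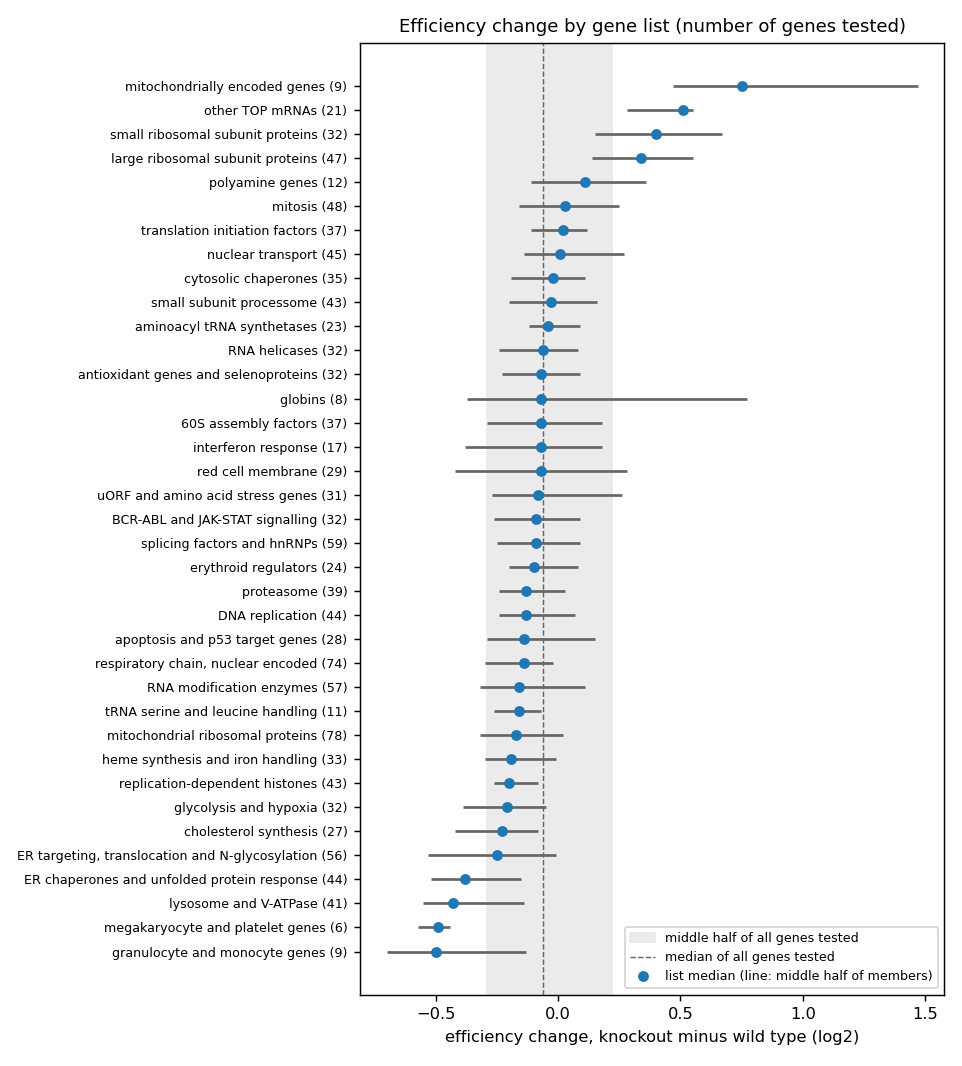
Efficiency change (x axis, log2 of knockout over wild type) for the 37 gene lists with at least 5 tested genes (y axis, number tested in brackets). Points are list medians, lines run from the first to the last quartile of members, the dashed line is the median of all genes (-0.06) and the grey band their quartiles (-0.29 to 0.22). Medians run from -0.50 for granulocyte and monocyte genes to 0.75 for mitochondrially encoded genes.

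Efficiency change was then set beside the wild type ac4C peaks, which the authors called on transcripts from immunoprecipitation (IP) and IgG control libraries. The 1683 tested genes with an IP peak that no IgG peak overlapped had a median of -0.09, and the 5852 genes whose IP peaks were all overlapped by IgG peaks also had -0.09. Genes with IgG peaks only (209) had 0.07 and genes with no peak (2555) had 0.11. With all peaks, the medians thus differed between genes with and without an IP peak, and were equal for IP peaks with and without an IgG peak. Of the 45290 wild type IP peak intervals, only 3017 had no IgG overlap. No test was made of these classes. With only peaks of at least 4-fold enrichment the medians were -0.12, -0.11, -0.08 and 0.03 in the same order. Genes with IgG peaks only then lay close to those with an IP peak.

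Other gene properties were set beside efficiency in the same way. Over 10 bins of equal size by RNA level the median ran from -0.08 to 0.01, and the bin with the highest RNA level had -0.05. Transcript length, known for 7600 genes that appear in the peak lists, went with a median of -0.14 in the bin of the shortest transcripts (297 to 1260 bases) and 0.02 in that of the longest (6960 to 34600 bases), with the lowest, -0.16, at 1760 to 2170 bases. The GC share of the first 50 bases, known for 8493 genes, gave medians between -0.10 and -0.01.

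**Figure D5:**
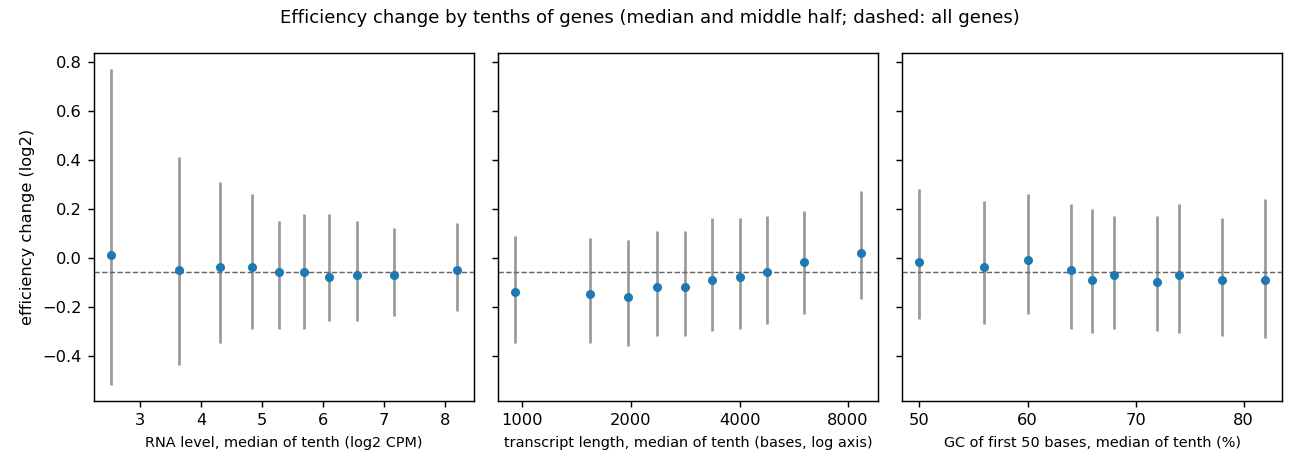
Median efficiency change (points, y axis, log2) and quartiles (bars) over 10 bins of genes by RNA level, by transcript length on a log axis and by GC share of the first 50 bases. The dashed line is the median of all genes, -0.06. The bars are widest for the bin with the lowest RNA level, and the median of the longest transcripts is 0.02.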

How the data were processed

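The gene counts of both assays are whole numbers as deposited, from alignments with duplicates removed, per the file headers. STAR, featureCounts and GRCh38.p13 are among the names in the submitters' processing notes, which give no roles. Removing duplicates without molecular identifiers can lower the counts of abundant, short footprints. Peak lists were used as the authors deposited them, with fold enrichment over input as a ratio per peak and −log10 p and q values, which were not used.

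Groups came from sample titles. Of 20401 shared genes, 10299 passed filterByExpr and were fitted with edgeR 4.0.16 (R 4.3.3): TMM, a quasi-likelihood F test of assay by genotype, Benjamini-Hochberg adjustment, a threshold of 0.05, and 3 residual degrees of freedom. The biological coefficient of variation was 7.69%. In simulated data, known changes were recovered in median size, a check that set no minimum for how many are called. Library ratios use TMM factors with a prior count of 2. Lists are described by counts and medians. The members, lists and tests were chosen with earlier results of these data known.

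Named genes are NAT10, then 12 rises and 12 falls in efficiency that reach a mean log2 CPM of 3 in both assays and no overlap between genotypes, past the test or filled up by lowest p, then up to 3 per list by lowest p. Other genes named were chosen after their values were seen. Alternatives were another scaling, DESeq2 1.42.0, limma voom 3.58.1, other filters, a replicate block, the knockout RNA-seq libraries kept apart, and each library left out. Protein sequences were not used here, so planned classes by protein length and composition were left out.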

Additional observations from a re-analysis of the deposited data

How the results depend on the processing

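The number of genes called for efficiency was 1, and it was 7 with the knockout RNA-seq libraries kept apart, 0 with TMM within each assay, 24 with DESeq2, 5 with limma voom, 71 without a filter on low counts, 0 with at least 10 counts in every column, and 0 to 5 when a library was left out. Where it was 0, the edgeR test had 927 genes (TMM within each assay) and 711 genes (at least 10 counts) at an unadjusted p under 0.05. With a replicate block it was 16 (15 higher, 1 lower), and 22 with the wild type Ribo-seq numbers crossed, an alternative chosen after seeing the data because the replicate differences of wild type RNA-seq and Ribo-seq correlated at -0.192. The labels do not say that numbers pair samples, and the other correlations ran from -0.124 to 0.17. RNA calls were 1572, and 4205 with the libraries kept apart, 781 with the replicate block, 643 with DESeq2, 3705 with limma voom, 1043 with at least 10 counts, and 156 to 2376 with a library left out, with shares of rises from 26.6% to 56.1%. Footprint calls were 390 to 878 with a library left out. The median of all genes moved too, from -0.06 to 0.06 with the knockout RNA-seq libraries kept apart. It was also 0.06 with either replicate block and with at least 10 counts. RLE size factors and no filter each gave -0.03, and TMM within each assay 0.01. With a library left out, the median of all genes ran from -0.10 to 0.10. The list medians that follow are to be read beside these values. The medians of the 6 ribosomal protein, TOP, ER and lysosome lists kept their sign in all 18 alternatives. The small subunit median was 0.52 with the crossed block. The ER targeting median was -0.14 with libraries kept apart, -0.17 with the replicate block, -0.16 with the crossed block, -0.21 with RLE size factors, -0.18 with TMM within each assay, -0.27 without a filter and -0.11 with at least 10 counts. The lysosome median was -0.32 with libraries kept apart, -0.34 with the replicate block, -0.33 with the crossed block and -0.28 with at least 10 counts. With a library left out, medians were 0.16 to 0.69 for small subunit, 0.08 to 0.64 for large subunit, 0.34 to 0.81 for other TOP, -0.55 to -0.22 for ER chaperone, -0.41 to -0.07 for ER targeting and -0.59 to -0.23 for lysosome genes. With a library left out, HBE1, at 0.89, ran from -0.02 (without wild type RNA-seq replicate 1) to 1.51, and the fitted value of AZU1, at -3.43 from few footprints, ran from -10.55 to 1.09 (without wild type Ribo-seq replicate 2). The cause of these differences was not tested. The shallowest Ribo-seq library had 621287 counts, which limits genes with few footprints most. Where an arm was left with 1 library, it was assumed to vary like the others.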

Other observations

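Families of genes named by symbol, chosen after values were seen, gave further values. The 181 tested solute carriers (symbols starting with SLC) had a median efficiency change of -0.22, and footprints fell for 28 and rose for 1 of them, beside 5.82% and 2.74% of all genes. The 130 tested TMEM genes, which encode transmembrane proteins, had -0.16. The 298 tested ZNF genes, which encode zinc finger proteins, had 0.09. The median of all genes was -0.06. Replication-dependent histones, whose mRNAs lack a poly(A) tail and are near-identical copies, had -0.20 over 43 tested genes. Of these, 37 were negative, beside 5753 of all 10299 genes. Cholesterol synthesis genes had a median RNA change of 0.31 (9 of 27 rose, beside 6.97% of all genes), a median footprint change of 0.03 and a median efficiency change of -0.23.

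HBE1, the embryonic beta-type globin, had 1433 to 5557 CPM of footprints in the 4 Ribo-seq libraries but 0.884 to 2.89 CPM of RNA in the 4 RNA-seq libraries. Its footprints rose by 1.54 on the log2 scale (edgeR adjusted p = 0.000185), while its efficiency change of 0.89 (SE 0.46) rests on very few RNA counts. FYB1, an adaptor protein of blood cells, had RNA of 2.75 and 4.03 CPM in knockout against 132 and 147 CPM in wild type, and footprints of 3.41 and 0 CPM against 107 and 81.2 CPM. The log2 changes were -5.32 in RNA and -5.46 in footprints, both past the test, with an efficiency change of -0.14 (SE 0.84).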
